A study of Sus scrofa with 6 samples.

Results

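TGF-β, BMP and Wnt signalling genes were examined in the left ventricular (LV) free wall of piglets, taking ligands, receptors, secreted antagonists, intracellular effectors and target genes in turn. A list of 60 genes of these pathways was used, and a gene entered when the array annotation gave a probe set its symbol alone, or when the study's supplementary table of selected genes gave a probe set its name. By this rule 40 genes had 62 probe sets, of 6773 named genes and 23999 probe sets in all, and 8 of the 40 were named by the supplementary table only. The other 20 genes, among them TGFBR2, SMAD2, SMAD7, BMP2, NOG, WNT5A, LRP5 and AXIN2, had no probe set under their symbols and are not analysed here.

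The study compared Large White piglets that received a single intravenous injection of doxorubicin (Dox) at 2.0 mg/kg with piglets that received phosphate-buffered saline (PBS), both at 8 days of age. Dox belongs to the anthracyclines, anticancer agents known for their cardiac toxicity. LV tissue was taken 3 weeks later, at a labelled age of 28 days, and the days given in the study's methods differ slightly from those of the labels. The Affymetrix Porcine Genome Array was used for total RNA from 3 piglets of each group, 1 animal per array, and no other treatment or genotype is labelled.

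In canonical TGF-β signalling a ligand dimer joins type I and type II receptor kinases, which phosphorylate the transcription factors SMAD2 and SMAD3. BMP ligands use a parallel set of receptors that act through SMAD1 and its relatives, both branches share SMAD4, and SMAD6 and SMAD7 inhibit them. In canonical Wnt signalling a Wnt ligand binds a Frizzled receptor with an LRP co-receptor, which stops the destruction complex with the kinase GSK3B from degrading β-catenin (CTNNB1). In the heart, TGF-β is best known for driving matrix production by fibroblasts, and both BMP and Wnt signals pattern the embryonic heart.

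The deposited values are MAS5 signals, linear hybridization intensities with 1 value per probe set. The highest signal of the Tag control probe sets, which have no pig target, was 2.5 to 6.3 on the 6 arrays, and signals no higher than that are called within the Tag range. Of the 40 genes, 32 were above the Tag range on at least 3 arrays at the probe set used. The other 8 (TGFB2, TGFBR3, MSTN, ACVR2B, WNT5B, WNT10B, FZD3 and FZD9) were within it on 4 or more arrays, so no fold is read from them.

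The arrays differed in ways that touch what follows. Spiked hybridization controls, read as the geometric mean of 18 probe sets, were at 953.6, 887.5 and 1239 in Dox-injected and at 700.9, 746.4 and 769.3 in PBS-injected piglets. The ratio of the 3′ to the 5′ signal of 1 pair of actin probe sets, a measure of RNA integrity, was 6.04, 3.96 and 2.2 in Dox-injected piglets 1, 2 and 3. It was 2.63, 2.28 and 1.96 in PBS-injected piglets, with overlap through Dox piglet 3. The same ratio for 1 pair of GAPDH probe sets was 1.55, 1.26 and 1.24 in Dox-injected and 1.28, 1.18 and 1.16 in PBS-injected piglets, with overlap. No ratio was taken for the other GAPDH pairs. In 1 of them the 5′ signals were 1397.6, 3426.4 and 4777.4 in Dox-injected and 2239.3, 3296.6 and 3692 in PBS-injected piglets. Its 3′ signals were 4092.7, 4561.1 and 5907.5 against 3770.3, 4216.3 and 4360.1. In another pair the 5′ signal was 3089.1 in Dox piglet 1 and 2811.5 in PBS piglet 1. The 3′ signals of these animals were 8203.6 and 6210.6. A second actin pair was also left without a ratio. Its 5′ signals were 43.6, 140.3 and 175.4 in Dox-injected and 103.2, 25.8 and 51.2 in PBS-injected piglets. Its 3′ signals were 3351.4, 4150.3 and 5717.9 against 3617.4, 3110.8 and 3197.1. There the lowest 5′ signal was in PBS piglet 2. Over all probe sets the median log2 difference (Dox minus PBS) was -0.10, and both quantile and cyclic loess normalization brought it to between -0.01 and 0.00. The 10 cardiomyocyte marker genes with a probe set were all above the Tag range. The part of RNA integrity in the results was not tested.

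No member passed the test over the whole array, and most members nearest to the threshold were Wnt receptors and secreted Wnt antagonists. DKK3, SFRP4, FZD2, FZD8, DKK2, SMAD3 and SMAD1 were above the Tag range with a nominal p (limma, before adjustment) up to 0.05, DKK3 and SMAD3 with a higher and the other 5 with a lower signal in Dox-injected piglets. At an adjusted p of at most 0.05 and a fold of at least 2, limma called 0 of the 40 genes and 0% of all probe sets, and the lowest adjusted p of any member was 0.521. At a nominal p up to 0.05, 2 members (5%) were higher in Dox-injected piglets, against 3.62% of all probe sets, and 6 (15%) were lower, against 5.92% of all probe sets, the sixth being WNT5B within the Tag range. Signals of the groups did not overlap for 4 members (10%) with Dox above PBS, against 6.19% of all probe sets, and for 6 (15%) with Dox below PBS, against 10.1% of all probe sets. Of these 10 members, TGFB2, ACVR2B and WNT5B were within the Tag range. Above it, 6.25% of the 32 members had Dox above PBS without overlap, against 6.78% of such probe sets, and 15.6% had Dox below PBS, against 12.4%. With 3 animals per group, 0.1 is the smallest two-sided p of an exact permutation test, and each non-overlapping gene takes it.

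**Figure D1:**
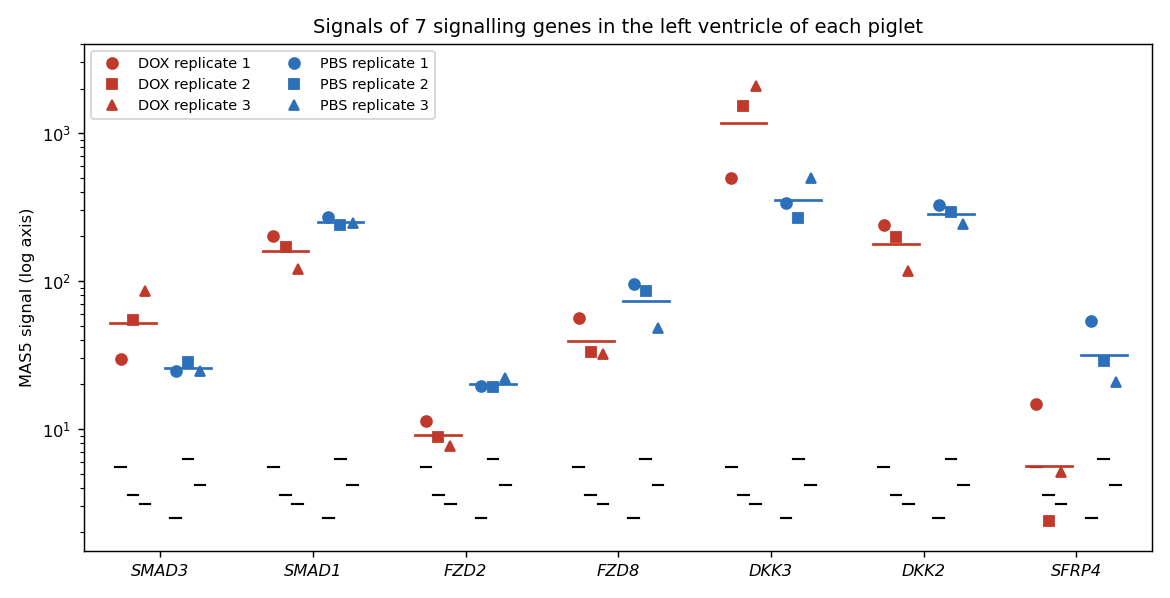
MAS5 signal on a log axis for the 7 genes above the Tag range with a nominal p up to 0.05, with 1 point per piglet, Dox-injected in red left of PBS-injected in blue, coloured lines for geometric means of 3 arrays and black dashes for the highest Tag signal of each array (2.5 to 6.3). The groups overlap for FZD8 and for no other of the 7 genes, and SFRP4 lies below the Tag signal in Dox-injected piglet 2.

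Of the TGF-β ligands, all 3 had a probe set and none had a nominal p up to 0.05. TGFB3, a ligand made by many mesenchymal cells, had signals of 31.8, 51.1 and 46.9 in Dox-injected and 77.9, 47.4 and 59.1 in PBS-injected piglets. The groups overlapped only through Dox piglet 2 and PBS piglet 2, and the log2 difference was -0.51 (SE, the standard error of the fit, 0.31, limma-adjusted p = 0.598). TGFB1, the ligand most often tied to cardiac fibrosis, had signals of 61.9, 78.3 and 115.6 in Dox-injected and 95.1, 93.4 and 72.4 in PBS-injected piglets. Its Dox signals spanned the whole PBS range, and the log2 difference of -0.07 had a 95% confidence interval (CI) of -0.72 to 0.59. The TGFB2 probe set of the supplementary table had signals of 5.7, 3.6 and 3.5 in Dox-injected and 2.5, 2.2 and 3.2 in PBS-injected piglets, within the Tag range on 4 arrays. No fold is read from this probe set, although its groups did not overlap.

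Among the TGF-β receptors, ENG, the endothelial co-receptor endoglin, had signals of 84, 101.2 and 142.2 in Dox-injected and 119, 88.6 and 102.5 in PBS-injected piglets. The groups overlapped, with a log2 difference of 0.05 (95% CI -0.55 to 0.65). TGFBR1, the type I receptor kinase, had signals of 3.5, 6.4 and 9 in Dox-injected and 5, 5.4 and 9.6 in PBS-injected piglets at the probe set of the supplementary table, with overlap. TGFBR3, the co-receptor betaglycan, had signals of 3, 6.4 and 5.9 in Dox-injected and 0.1, 1.4 and 3.4 in PBS-injected piglets. Dox piglets 2 and 3 were above the Tag range, no PBS-injected piglet was, and Dox piglet 1 lay below PBS piglet 3.

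The SMAD genes held a receptor-activated member with a higher and one with a lower signal in Dox-injected piglets. SMAD3, the effector of TGF-β receptors, had signals of 29.9, 54.5 and 85.1 in Dox-injected and 24.6, 28.5 and 24.7 in PBS-injected piglets. The PBS signals lay within 4 units of each other, whereas the Dox signals ran from just above them to well clear of them. The mean was 56.5 ± 27.7 in Dox-injected and 25.9 ± 2.2 in PBS-injected piglets (SD, n = 3 each), a log2 difference of 1.0 (SE 0.39, limma-adjusted p = 0.521). SMAD1, the effector of BMP receptors, had signals of 200, 169.6 and 120.4 in Dox-injected and 268.9, 239.6 and 245.2 in PBS-injected piglets. Every Dox-injected piglet lay below every PBS-injected piglet, and the log2 difference was -0.65 (SE 0.23, limma-adjusted p = 0.521). For both genes Dox piglet 1 was nearest to the PBS-injected piglets and Dox piglet 3 farthest from them. Without Dox piglet 3 the difference was 0.64 for SMAD3 and -0.45 for SMAD1.

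SMAD4, the partner shared by both branches, had signals of 268.4, 258.6 and 318.1 in Dox-injected and 370, 438.8 and 269.7 in PBS-injected piglets. The groups overlapped through PBS piglet 3 (log2 difference -0.33, limma-adjusted p = 0.63). SMAD6, an inhibitor of BMP signalling, had signals of 66, 68 and 70.3 in Dox-injected piglets, inside the PBS range of 42.2 to 91.7.

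BMP4 and BMP7 were the BMP ligands with a probe set. BMP4 had signals of 71.7, 74.4 and 100.7 in Dox-injected and 99.9, 72.5 and 70.8 in PBS-injected piglets, with 1 piglet of each group near 100.7 and the others close together (log2 difference 0.02, 95% CI -0.57 to 0.61). BMP7 had signals of 6.3 to 12.7 in Dox-injected and 6.6 to 11.2 in PBS-injected piglets. INHBA, which encodes the subunit of activin A, had signals of 54.3 to 98.7 in Dox-injected and 73.5 to 103 in PBS-injected piglets. At the probe sets used, INHBB and MSTN, the gene of the muscle growth inhibitor myostatin, had signals of at most 5.1 on every array, those of INHBB being 2.8, 0.5 and 5.1 in Dox-injected and 4.6, 0.5 and 4.3 in PBS-injected piglets. FST, whose product follistatin binds activins and myostatin, had signals of 35.2, 19.5 and 13.8 in Dox-injected and 11.7, 40.5 and 33.1 in PBS-injected piglets, with wide overlap.

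Of the receptors for BMPs and activins, 5 of 6 had a probe set and none had a nominal p up to 0.05. BMPR1A, a type I BMP receptor, had signals of 55.6, 62.5 and 84.9 in Dox-injected and 113.9, 72.6 and 79.1 in PBS-injected piglets, with overlapping groups and a log2 difference of -0.38 (SE 0.28). ACVR1, a type I receptor for BMPs, had signals of 146.8, 220.1 and 155.6 in Dox-injected and 256.5, 189.7 and 154.7 in PBS-injected piglets. ACVR2A, a type II activin receptor, had signals of 1, 11 and 16.6 in Dox-injected and 7.1, 19 and 18.1 in PBS-injected piglets. Its log2 difference of -1.25 was 0.01 without Dox piglet 1. BMPR1B had signals of 3.2 to 8 in Dox-injected and 4.7 to 5.5 in PBS-injected piglets, with overlap. ACVR2B, another type II activin receptor, had signals of 3.3, 4.9 and 4 in Dox-injected and 2.5, 2.3 and 3 in PBS-injected piglets. The groups did not overlap, but the probe set was within the Tag range on 4 arrays and no fold is read from it.

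The ID genes encode inhibitors of basic helix-loop-helix factors and are direct targets of BMP-activated SMADs. ID3 had signals of 623.4, 786.9 and 779.5 in Dox-injected and 719.5, 698.1 and 691.3 in PBS-injected piglets, and the PBS signals lay between those of Dox piglet 1 and the other 2 Dox-injected piglets. Its log2 difference was 0.05, and the 95% CI of -0.33 to 0.43 was the narrowest of the 40 genes. ID1 had signals of 322.8, 352 and 443.1 in Dox-injected and 480.8, 411.7 and 370.6 in PBS-injected piglets (log2 difference -0.18, 95% CI -0.64 to 0.27). ID2 had signals of 0.5, 4 and 10.4 in Dox-injected and 7.1, 10.7 and 5 in PBS-injected piglets, and its log2 difference of -1.40 was -0.17 without Dox piglet 1. ID4 had signals of 6.4 to 9.8 in Dox-injected and 2.3 to 9 in PBS-injected piglets.

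**Figure D2:**
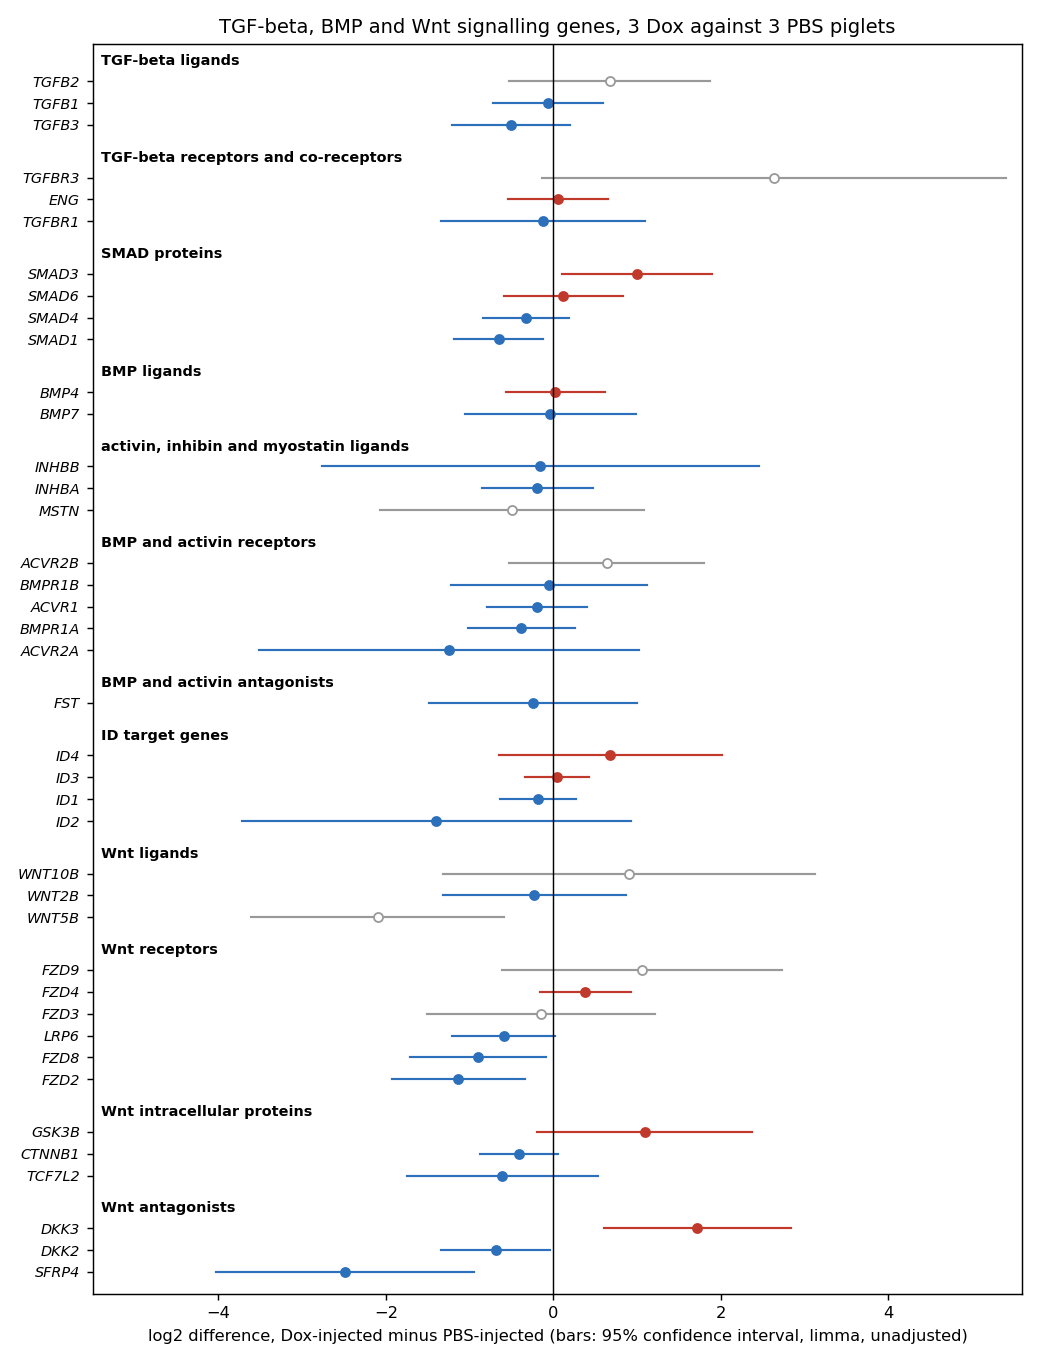
Log2 difference, Dox-injected minus PBS-injected piglets (n = 3 each), of the 40 genes by role, with unadjusted 95% confidence intervals from limma and with open grey symbols for the 8 genes within the Tag range on 4 or more arrays. Filled symbols whose interval leaves out 0 are SMAD3 and DKK3 above 0, and SMAD1, FZD2, FZD8, DKK2 and SFRP4 below 0.

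The secreted Wnt antagonists differed from each other in direction. DKK3, a Dickkopf family member whose link to Wnt receptors is weaker than that of its relatives, had signals of 496.4, 1530.1 and 2068.3 in Dox-injected and 335.7, 265 and 494.6 in PBS-injected piglets. Dox piglets 2 and 3 stood far above the highest PBS signal, whereas Dox piglet 1 exceeded PBS piglet 3 only narrowly. The mean was 1365 ± 799 in Dox-injected and 365 ± 118 in PBS-injected piglets (SD, n = 3 each), a log2 difference of 1.72 (SE 0.49, limma-adjusted p = 0.521). Without Dox piglet 1 the difference was 2.33 (limma-adjusted p = 0.0698), and the adjusted p over the other alternatives was at least 0.169.

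SFRP4, a secreted Frizzled-related protein that binds Wnt ligands, had signals of 14.8, 2.4 and 5.1 in Dox-injected and 53.3, 28.7 and 20.7 in PBS-injected piglets. All PBS-injected piglets were above all Dox-injected piglets, and Dox piglet 2 was within the Tag range. The ratio of the geometric means was 5.59 in favour of PBS (log2 difference -2.48, SE 0.67, limma-adjusted p = 0.521), and it depended on how faint signals were treated, with a log2 difference of -1.08 when 16 was added to each signal. DKK2, a Dickkopf protein that binds the LRP co-receptors, had signals of 239.2, 197.9 and 117.7 in Dox-injected and 328.5, 293 and 242.6 in PBS-injected piglets. Dox piglet 1 and PBS piglet 3 differed by less than 4 units, and the log2 difference was -0.69 (SE 0.29, limma-adjusted p = 0.521). Leaving out Dox piglet 3 brought it to -0.39.

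Of the 6 Wnt receptor genes with a probe set, 4 had a lower geometric mean in Dox-injected piglets, FZD3 within the Tag range among them. FZD2, a Frizzled receptor, had signals of 11.4, 8.8 and 7.7 in Dox-injected and 19.4, 19.1 and 22.1 in PBS-injected piglets. Both groups were tight and the gap between them was wider than the spread within either, with means of 9.3 ± 1.9 in Dox-injected and 20.2 ± 1.65 in PBS-injected piglets (SD, n = 3 each). The log2 difference was -1.14 (SE 0.35, limma-adjusted p = 0.521), and it stayed between -1.29 and -1.01 with any 1 array left out. It was -0.93 under both quantile and cyclic loess normalization, and -0.52 when 16 was added to each signal.

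FZD8, another Frizzled receptor, had signals of 56.2, 33.2 and 32.2 in Dox-injected and 94.8, 85.6 and 48.5 in PBS-injected piglets. Dox piglet 1 exceeded PBS piglet 3, and the log2 difference was -0.90 (SE 0.36, limma-adjusted p = 0.521). LRP6, the Wnt co-receptor, had signals of 40.2, 34.5 and 27 in Dox-injected and 47.3, 52.5 and 51.7 in PBS-injected piglets at the probe set used. The groups did not overlap, and the log2 difference was -0.59 (SE 0.27, limma-adjusted p = 0.53). FZD4, a Frizzled receptor of endothelial cells, had signals of 775.6, 850.5 and 1376.5 in Dox-injected and 820.6, 654.9 and 764.1 in PBS-injected piglets. Only Dox piglet 3 stood clear of the others, and the log2 difference of 0.38 was 0.13 without it. FZD3 and FZD9 had signals of at most 7 on every array.

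Of the Wnt ligands, WNT2B was above the Tag range, with signals of 8.1, 10.6 and 8.6 in Dox-injected and 19.4, 8.6 and 7.1 in PBS-injected piglets. PBS piglet 1 was the single high value, and the groups otherwise overlapped. WNT5B, a ligand of the non-canonical branch, had signals of 1.8, 0.6 and 1.4 in Dox-injected and 4.1, 3.9 and 7.4 in PBS-injected piglets. Every Dox-injected piglet was below every PBS-injected piglet and within the Tag range, which 2 PBS-injected piglets exceeded. WNT10B stayed within the Tag range throughout, with signals of 0.4 to 3.3.

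Inside the cell, GSK3B had signals of 90, 161.7 and 539.4 in Dox-injected and 113.9, 83.4 and 85.5 in PBS-injected piglets. Its log2 difference of 1.09 (SE 0.56, limma-adjusted p = 0.558) was 0.37 without Dox piglet 3, the highest value, and 1.66 without Dox piglet 1. Dox piglet 2 was also above every PBS signal, whereas Dox piglet 1 lay inside the PBS range. TCF7L2, a transcription factor that partners β-catenin, had signals of 4 to 10.6 in Dox-injected and 7.5 to 13.5 in PBS-injected piglets (log2 difference -0.61, SE 0.50).

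CTNNB1 was measured by 5 probe sets, which did not give a single direction. The brightest had signals of 2136.7, 2168.7 and 2033 in Dox-injected and 1515.3, 1643.8 and 1703.9 in PBS-injected piglets, with no overlap and a log2 difference of 0.38 (SE 0.14, limma-adjusted p = 0.521). The probe set of the supplementary table had signals of 888.4, 628.7 and 592.6 in Dox-injected and 956.9, 1005.2 and 808.8 in PBS-injected piglets, where Dox piglet 1 overlapped the PBS range (log2 difference -0.41, SE 0.20, limma-adjusted p = 0.546). A further probe set had signals of 306.6, 200.2 and 217.5 in Dox-injected and 418, 369.1 and 299.1 in PBS-injected piglets (log2 difference -0.60, SE 0.23, limma-adjusted p = 0.521). The remaining ones gave -0.22 and 0.15. All 5 probe sets were above the Tag range on every array.

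Probe sets of the same gene were compared for the 15 members that had 2 or more. For 9 of them at least 2 probe sets were above the Tag range on at least 3 arrays, and all such probe sets had the same sign in 6 of the 9 (66.7%), against 60.4% of 1604 named genes on the array. These 6 genes were TGFB1, TGFBR1, ACVR1, BMPR1B, FZD4 and LRP6. Both LRP6 probe sets had groups without overlap, the second with signals of 5.4, 6.6 and 6.3 in Dox-injected and 9.5, 8.4 and 11.9 in PBS-injected piglets (log2 difference -0.69 against -0.59).

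The 3 genes with mixed signs were TGFB2, ACVR2A and CTNNB1. The brightest TGFB2 probe set had signals of 16.6, 20 and 29.7 in Dox-injected and 27.8, 29.9 and 28.3 in PBS-injected piglets (log2 difference -0.42). Another TGFB2 probe set had signals of 4.9, 6.4 and 8.7 in Dox-injected and 9.9, 10.7 and 17.7 in PBS-injected piglets, with no overlap (log2 difference -0.93, limma-adjusted p = 0.539). The third TGFB2 probe set above the Tag range had the opposite sign, with signals of 10.2, 8.6 and 11 in Dox-injected and 14.1, 10.8 and 4.8 in PBS-injected piglets, which overlapped (log2 difference 0.13). The second ACVR2A probe set had signals of 6, 7.9 and 11.2 in Dox-injected and 5.2, 4.8 and 4.4 in PBS-injected piglets, with Dox above PBS and no overlap (log2 difference 0.76), where the first had -1.25. For TGFBR1, INHBB, FST and DKK2 a further probe set of the opposite sign was faint, with signals of at most 6.7 on every array, and no fold is read from it. Which transcripts each probe set detects was not tested.

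**Figure D3:**
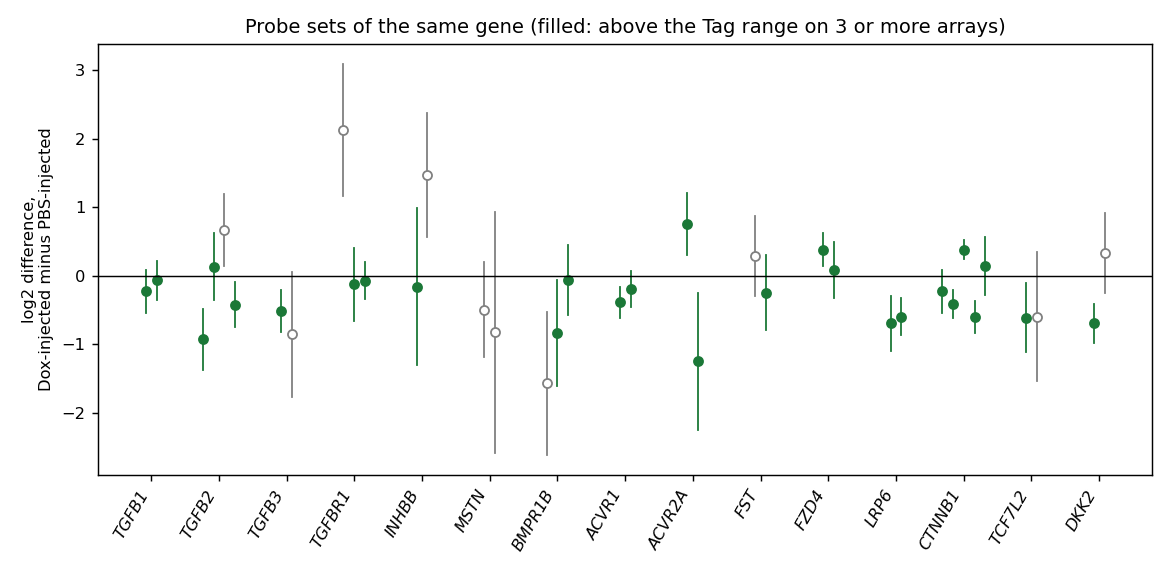
Log2 difference (Dox-injected minus PBS-injected piglets, n = 3 each) of every probe set of the 15 genes with 2 or more, with bars of 1 standard error from limma and filled symbols for probe sets above the Tag range on at least 3 arrays. The 5 CTNNB1 probe sets run from -0.60 to 0.38, and the 2 LRP6 probe sets lie at -0.69 and -0.59.

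By function, the median log2 difference was -0.16 over 11 ligands, -0.13 over 14 receptors, -0.47 over 4 secreted antagonists and -0.18 over 11 intracellular effectors and targets, against -0.10 over all probe sets. Without the genes within the Tag range, the median was -0.16 over 7 ligands and -0.29 over 10 receptors, against -0.13 over all probe sets above it. The 25 genes of TGF-β and BMP signalling had a median of -0.12, with 1 gene higher (4%) and 1 lower (4%) at a nominal p up to 0.05, against 3.62% and 5.92% of all probe sets. The 15 genes of Wnt signalling had 1 higher (6.67%) and 5 lower (33.3%), WNT5B within the Tag range among the 5. Their median of -0.41 was the value of CTNNB1, whose brightest probe set has the other sign, and the median was -0.59 over the 11 genes above the Tag range. Over all 40 genes the median was -0.17, with 14 above and 26 below 0. It moved to -0.03 under both quantile and cyclic loess normalization, so no common direction is read from it.

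Other genes of the same pathways were then read. Of 51 further TGF-β and BMP pathway genes listed, 20 had a probe set, of which 0 were called, 0 were higher and 3 (15%) were lower at a nominal p up to 0.05, against 3.62% and 5.92% of all probe sets (median log2 difference over the 20 of -0.17). The 3 were DCN, HTRA1 and ITGAV. ITGAV, an integrin subunit that takes part in freeing latent TGF-β, had signals of 286.3, 322.6 and 102.9 in Dox-injected and 575.8, 533.1 and 400.3 in PBS-injected piglets (log2 difference -1.23, SE 0.41). DCN, which encodes the TGF-β-binding matrix proteoglycan decorin, had signals of 1231.5, 853.1 and 661.8 in Dox-injected and 1712.9, 1450.3 and 1861.7 in PBS-injected piglets (log2 difference -0.91, SE 0.24). The groups did not overlap for either gene. Next in order was FSTL3, a follistatin-like activin binder, with a log2 difference of 0.51 (SE 0.24, limma-adjusted p = 0.536).

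Of 72 further Wnt pathway genes, 20 had a probe set, of which 0 were called, 0 were higher (3.62% of all probe sets) and 3 (15%) were lower (5.92% of all probe sets) at a nominal p up to 0.05, with a median of -0.29. WLS, the carrier that takes Wnt ligands to the cell surface, had signals of 65.1, 37.1 and 34.7 in Dox-injected and 116.5, 80.7 and 102.1 in PBS-injected piglets (log2 difference -1.17, SE 0.31, limma-adjusted p = 0.521). The groups did not overlap, and Dox piglet 1 was again nearest to the PBS-injected piglets. The other lower genes were TNKS2, a tankyrase that destabilizes axin, and CHD8, a chromatin remodeller that binds β-catenin, with log2 differences of -0.65 and -0.59. FZD6 followed with -1.02 (SE 0.46).

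Known target genes of the pathways were read next. Of 22 TGF-β targets, 15 had a probe set, 1 higher (6.67%) and 2 lower (13.3%) at a nominal p up to 0.05, beside 3.62% and 5.92% of all probe sets (median -0.24). The higher gene was CDKN1A, the cell cycle inhibitor p21, which is also a p53 target, with signals of 810.8, 698.2 and 835.7 in Dox-injected and 275, 213.8 and 311.8 in PBS-injected piglets (log2 difference 1.56, SE 0.20, limma-adjusted p = 0.428). The lower genes were matrix genes. FN1, the fibronectin gene, had signals of 608.9, 240.6 and 263 in Dox-injected and 1485.8, 553 and 647.2 in PBS-injected piglets, and POSTN, the periostin gene, had signals of 168.8, 52.4 and 11.3 in Dox-injected and 404.4, 179.7 and 176.9 in PBS-injected piglets. POSTN did not overlap between the groups, whereas FN1 did. COL1A2, a collagen I chain gene, had a log2 difference of -0.67 (SE 0.31, limma-adjusted p = 0.531).

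Of 20 Wnt targets 5 had a probe set, and 2 were higher and 0 lower at a nominal p up to 0.05, beside the same shares of all probe sets. MYC, a growth-promoting transcription factor with many other inducers, had signals of 141.6, 336.2 and 1044.5 in Dox-injected and 62.7, 143.4 and 81.2 in PBS-injected piglets. JUN, a stress-inducible transcription factor, had signals of 709.1, 1187.5 and 657.4 in Dox-injected and 285, 568.7 and 490.1 in PBS-injected piglets. The limma-adjusted p was 0.521 for both, and only JUN was without overlap. FOSL1 and LEF1 had log2 differences of 1.92 (SE 1.04) and -0.31 (SE 0.44).

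Marker genes of other heart cells also differed between the groups. Summed signals of 6 fibroblast markers were 927 to 2250 in Dox-injected and 2415 to 3335 in PBS-injected piglets, without overlap. DCN was the largest part of each sum, at 661.8 to 1231.5 in Dox-injected and 1450.3 to 1861.7 in PBS-injected piglets. LUM, the next largest, overlapped, with 727 in Dox piglet 1 against 650.3 in PBS piglet 3, and so did COL3A1 and FBLN1. The other 3 (50%) had Dox below PBS without overlap, against 10.1% of all probe sets. All 6 (100%) had a lower geometric mean in Dox-injected piglets, against 57.1% of all probe sets. At a nominal p up to 0.05, 3 of them (50%) were lower, against 5.92% of all probe sets. COL1A2 and COL3A1 had signals of only 5.5 to 27.2, and COL3A1 was within the Tag range on 1 array. DCN, POSTN, COL1A2 and COL3A1 belong both to these markers and to the lists above. Summed signals of 7 endothelial markers were 1185 to 1335 in Dox-injected and 1391 to 2074 in PBS-injected piglets, again without overlap. Of the 7, 6 (85.7%) were lower in geometric mean, against 57.1% of all probe sets. CDH5 and TIE1 (28.6%) were lower at a nominal p up to 0.05, against 5.92% of all probe sets. These 2 (28.6%) were without overlap, against 10.1% of all probe sets with Dox below PBS, and the other endothelial markers overlapped. The 5 smooth muscle and pericyte markers summed to 2180 to 3410 in Dox-injected and 2324 to 4050 in PBS-injected piglets. CNN1 alone gave 1378.5 of the sum of 3410 in Dox piglet 3, against 76.8 and 73.9 in Dox piglets 1 and 2. The 7 leukocyte markers summed to 442.8 to 1257 in Dox-injected and 307.5 to 412.9 in PBS-injected piglets, without overlap. Of the single markers, only S100A8 and S100A9 (28.6%) were without overlap, against 6.19% of all probe sets with Dox above PBS. Of these 7, 5 had a higher geometric mean in Dox-injected piglets, and AIF1 and CD3E a lower one (28.6%, against 57.1% of all probe sets). PTPRC, among the 5, was within the Tag range on 5 arrays, so no direction is read from it. S100A8 and S100A9 (28.6%) were higher at a nominal p up to 0.05, against 3.62% of all probe sets. S100A9 alone gave 681.5 of the sum of 1257 in Dox piglet 2. The 10 cardiomyocyte markers summed to 56780 to 73230 in Dox-injected and 47390 to 56450 in PBS-injected piglets, without overlap. Of the 10, 9 had a higher geometric mean in Dox-injected piglets and RYR2 a lower one (10%, against 57.1% of all probe sets). At a nominal p up to 0.05, 1 (10%) was higher, against 3.62% of all probe sets. Dox lay above PBS without overlap for 6 (60%), against 6.19% of all probe sets. No marker of these 5 lists was at 0 on all arrays. Sums of the atrial, red cell and adipocyte lists overlapped between the groups. The 5 skeletal muscle markers summed to 27 to 37.3 in Dox-injected and 50.7 to 252.7 in PBS-injected piglets, without overlap. MYL1 was the largest part of each of these sums, and 3 of the 5 were within the Tag range on 4 or more arrays. In bulk tissue, fewer cells of a type and less RNA per cell cannot be told apart, and the part of cell composition in the low SFRP4, FZD2, DKK2, WLS and matrix gene signals was not tested.

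**Figure D4:**
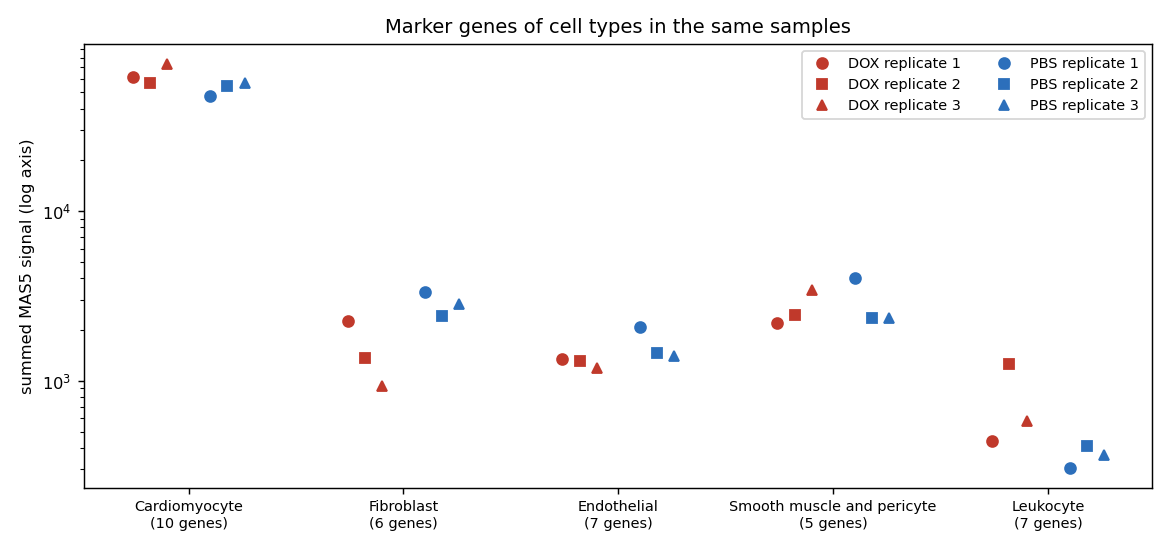
Summed MAS5 signal on a log axis of marker genes for 5 cell types, with 1 point per piglet, Dox-injected in red left of PBS-injected in blue. The fibroblast sums (927 to 2250 against 2415 to 3335) and the endothelial sums (1185 to 1335 against 1391 to 2074) lie lower in Dox-injected piglets without overlap. The leukocyte sums (442.8 to 1257 against 307.5 to 412.9) and the cardiomyocyte sums (56780 to 73230 against 47390 to 56450) lie higher without overlap.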

How the data were processed

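LV free wall RNA was measured on 6 arrays, 3 per group, grouped by the sample titles. The deposited values are MAS5 signal intensities (linear), produced by the authors in GCOS 1.4 (per the labels' processing notes) at default settings, scaled to a 2% trimmed mean of 100.03 or 100.04. Scanner files were not used here. Probe sets were named by the platform annotation, in which 10069 tested probe sets have 1 symbol and 198 have several and were not named.

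Signals of 0 were raised to 0.1 and log2 was taken. Limma 3.58.1 in R 4.3.3 fitted Dox minus PBS (trended eBayes) over 23999 probe sets, with 124 controls left out and Benjamini-Hochberg adjustment over all probe sets. A gene was read at the probe set of the supplementary table, otherwise at its brightest. Members above the Tag range with an unadjusted p of at most 0.05, groups without overlap or probe sets of mixed sign are given in full, the others by role. In the pathway and target lists, genes are named in order of unadjusted p. Members and lists were chosen with earlier results of these data known. Alternatives covered normalization, an offset, a filter on dim probe sets, the variance model, a replicate block, the choice of probe set and each array left out. The fit was tested on simulated data. The number of arrays limits precision. Figures were drawn with matplotlib 3.10.9.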

Additional observations from a re-analysis of the deposited data

How the results depend on the processing

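Under 16 alternatives (2 normalizations, an offset, a filter on dim probe sets, 2 variance settings, the methods' t-test, a replicate block, 2 other ways to read a gene and leaving out each array) 0 members were called, and over the whole array 0 probe sets were called except 14 without Dox piglet 1. The count of members at a nominal p up to 0.05, 2 higher and 6 lower with limma, was 1 and 3 without the intensity trend, and 1 higher and 5 lower with the methods' t-test. There the 1 higher member was ACVR2B, within the Tag range, and DKK3, SMAD3, FZD8 and DKK2 had a p above 0.05. With 1 array left out it ranged from 1 to 3 higher and from 3 to 8 lower, the 8 without Dox piglet 1 and the 3 without PBS piglet 1. Members without overlap numbered 10, 7 with the filter on dim probe sets, and 11 to 18 with 1 array left out, the 18 without Dox piglet 1. Leaving out an array sets 2 animals against 3, and such groups separate more easily than 3 against 3. Shares of all probe sets at a nominal p were not computed for any alternative, nor shares without overlap with 1 array left out. The counts under alternatives are not read as a result about the members. The median log2 difference of -0.17 was -0.029 under cyclic loess and ranged from -0.25 to -0.08 with 1 array left out. Genes whose probe sets had 1 sign numbered 6 of 9, and 3 to 6 with 1 array left out, the 3 without PBS piglet 1. The faint signals of the 8 genes within the Tag range limit what can be read from them.

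The labels do not say that replicate numbers pair the animals, whereas the study writes of 3 failing and non-failing pairs. Same-numbered arrays correlated at -0.006, 0.024 and -0.055 in their deviations from the group means, and not every array correlated best with its own number. With 3 arrays per group, such correlations cannot settle whether the animals were paired. With the replicate block 3 members were higher and 6 lower, and 0 were called.

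The sign held for 22 of the 40 genes (17 under all 16 alternatives, and 5 within the Tag range under the 15 that kept them) and turned for 18, and the cause was not tested. Under array weights the log2 difference became -0.001 for BMP4, 0.23 for BMP7, 0.083 for ACVR1 and 0.083 for WNT2B. Under cyclic loess it became 0.11 for TGFB1, 0.027 for TGFBR1, 0.15 for BMP7 and 0.071 for BMPR1B, and under quantile normalization 0.065 for TGFB1, 0.042 for TGFBR1, 0.16 for BMP7, 0.027 for BMPR1B and -0.009 for ID3. With the offset it was 0.005 for BMPR1B. As the mean of all probe sets it was -0.13 for TGFB2, 0.65 for TGFBR1, 0.66 for INHBB and 0.02 for FST, and at the brightest probe set -0.42 for TGFB2 and 0.38 for CTNNB1. With 1 array left out the log2 difference spanned 0 for these genes, from -0.31 to 0.14 for TGFB1, from -0.43 to 0.25 for TGFBR1, from -0.28 to 0.23 for BMP7, from -2.02 to 0.005 for ACVR2A, from -1.21 to 0.82 for INHBB, from -0.95 to 0.065 for MSTN, from -0.41 to 0.25 for BMPR1B, from -0.012 to 0.16 for ID3, from -0.48 to 0.15 for FZD3, from -0.15 to 0.23 for ENG, from -0.13 to 0.18 for BMP4, from -0.37 to 0.058 for INHBA, from -0.79 to 0.10 for FST, from -0.52 to 0.21 for WNT2B and from -0.17 to 0.40 for SMAD6.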

Other observations

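Within the Dox-injected group, piglet 2 lay between the other 2 animals for 22 of the 32 members above the Tag range (68.8%), against 8025 of 17069 probe sets above the Tag range (47%). Piglet 1 lay between the others for 2 members (6.25%, against 30.6% of those probe sets) and piglet 3 for 8 (25%, against 21.3%). The median absolute log2 distance from the PBS mean over these members was 0.38 for Dox piglet 1, 0.43 for Dox piglet 2 and 0.58 for Dox piglet 3, beside 0.27, 0.37 and 0.61 for the same animals over all 17069 probe sets, so Dox piglet 3 was farthest over the array as a whole too. Its array also had the lowest of the 6 array weights (0.328). SMAD1, SMAD3, DKK2, DKK3, FZD2, FZD8 and LRP6 were farthest from the PBS mean in Dox piglet 3, and SFRP4 in Dox piglet 2. Dox piglet 3 also had the lowest summed fibroblast signal, 927 against 1356 in Dox piglet 2 and 2250 in Dox piglet 1. These genes share the same 3 animals, and the part of RNA integrity, which also differed among them, was not tested.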
